A study of Mus musculus with 6 samples.

Results

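The transcripts described here are *Il11* and 8 other genes of the interleukin-6 (IL-6) family of cytokines and receptors, 9 of the 22063 genes in the deposited table. They comprised 4 ligands (*Il11*, *Il6*, *Lif* and *Clcf1*), 2 receptors that bind a ligand without signalling alone (*Il11ra1* and *Il6ra*) and 3 signal-transducing receptors (*Il6st*, *Lifr* and *Osmr*). Members were found by gene symbol, each with a single row, and all 9 had enough counts to be tested. The family was chosen by the log2 fold change of *Il11* between the groups compared below, and the other members were added as its relatives. The differences of the members between groups are therefore given as a description, without a p value, and nothing is drawn from how many of them passed the test.

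RNA-seq was performed on primary cardiac fibroblasts of mice with floxed *Tet3* alleles (*Tet3* f/f). TET3 oxidises methylated cytosines of DNA. The cells of 3 libraries (GFP, genotype label Control) received an adenovirus coding for green fluorescent protein, and those of 3 others (CRE, genotype label Tet3 knockout) an adenovirus coding for Cre recombinase, which excises DNA between loxP sites. Both groups carried the floxed alleles and were treated with TGF-β. Cells without TGF-β, and cells with Cre but without floxed alleles, were not analysed here, so the effect of Cre itself and that of the deletion cannot be told apart. The study calls its replicates biological, in a statement made for several assays together, and the labels do not say whether the libraries of a group came from separate mice or cultures. The p values measure the spread between these libraries, which may be technical in part. The age of the mice was not given in the sources used here.

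Cytokines of this family act by bringing together receptor chains that contain gp130, the product of *Il6st*. IL-6 and IL-11 first bind their own receptor (IL-6R or IL-11R) and then a pair of gp130 chains, whereas LIF and CLCF1 signal through gp130 paired with LIFR, and oncostatin M through gp130 paired with OSMR or, in part, LIFR. The receptors signal by JAK kinases to STAT3, which induces its own inhibitor SOCS3, and by SHP2 to ERK. In fibroblasts of the heart, *Il11* is known as a gene induced by TGF-β, and IL-11 as a cytokine with profibrotic activity.

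Total counts were between 17002126 and 20343590 per library. *Tet3* had between 965 and 1044 counts in the GFP libraries and between 637 and 649 in the CRE libraries, 60.8% of the GFP mean after scaling. The 3 CRE libraries were all below the 3 GFP libraries, and the counts did not drop to 0. Of 10 fibroblast markers 9 were lower in CRE libraries, with a summed level between 44697 and 47817 CPM in GFP and between 25201 and 26992 CPM in CRE (CPM, the count of a gene relative to the scaled library size). Of 8 myofibroblast markers, of which *Col1a1* and *Col1a2* are also on the fibroblast list, 6 were lower and 1 higher, and they summed to between 50926 and 51907 CPM in GFP and between 30194 and 32263 CPM in CRE. Among them, and named here after their values were seen, *Acta2*, which codes for smooth muscle actin, went from 1294 to 507 CPM on average, *Postn*, which codes for periostin, from 2008 to 583 CPM, and the higher gene, *Ccn2*, from 1391 to 2692 CPM. Of 15 endothelial markers 12 were lower and 1 higher, with a summed level between 1082 and 1140 CPM in GFP and between 1004 and 1053 CPM in CRE. The higher gene, *Eng*, named here after its values were seen, held between 621 and 671 CPM of this sum in GFP and between 774 and 827 CPM in CRE, and the other 14 summed to between 450.3 and 499 CPM in GFP and between 226 and 257 CPM in CRE. *Pecam1* and *Cdh5*, which define endothelial cells, went from 73.4 to 39.6 CPM and from 142 to 80.1 CPM on average. Of 6 tested macrophage and leukocyte markers of 13 listed, 3 were lower, and all 13 listed summed to between 59.2 and 66.9 CPM in GFP and between 35.5 and 38.7 CPM in CRE, with at most 10 counts per library for *Ptprc* and 3 for *C1qa*. Among 11 markers of smooth muscle cells and pericytes, 6 were lower and 1 higher, and they summed to between 1095 and 1249 CPM in GFP and between 927 and 944 CPM in CRE. Of 9 epicardial and mesothelial markers 7 were tested, 4 higher and 2 lower, and the summed level was between 82.7 and 87.9 CPM in GFP and between 53.3 and 56.4 CPM in CRE. Of this sum *Tbx18*, named here after its values were seen, held between 73.9 and 77.5 CPM in GFP and between 41.1 and 43.2 CPM in CRE, and the other 8 summed to between 8.83 and 10.5 CPM in GFP and between 10.1 and 14.6 CPM in CRE. Cardiomyocyte markers summed to at most 3.22 CPM, *Myh6* had no count in any library, and the 1 tested marker of 12 listed, *Nppb*, was higher. In these bulk samples fewer cells of a type and less RNA per cell cannot be told apart, and the part of these markers in the differences below was not tested.

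Among the ligands, *Il11* and *Lif* were higher in the CRE libraries, *Il6* was lower, and *Clcf1* did not separate the groups. The receptors also went in both directions. *Il11ra1*, *Lifr* and *Osmr* were higher, whereas *Il6ra* and *Il6st* were lower. In edgeR's quasi-likelihood test across all genes, at an adjusted p under 0.05, 5 of the 9 members passed as higher and 3 as lower, where 25.5% of the 12862 tested genes passed as higher and 25.7% as lower. In 8 of the 9 the CPM of the groups did not overlap, as in 59.6% of all tested genes. The median log2 fold change of the members was 0.32, and that of all tested genes was 0.0052.

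**Figure D1:**
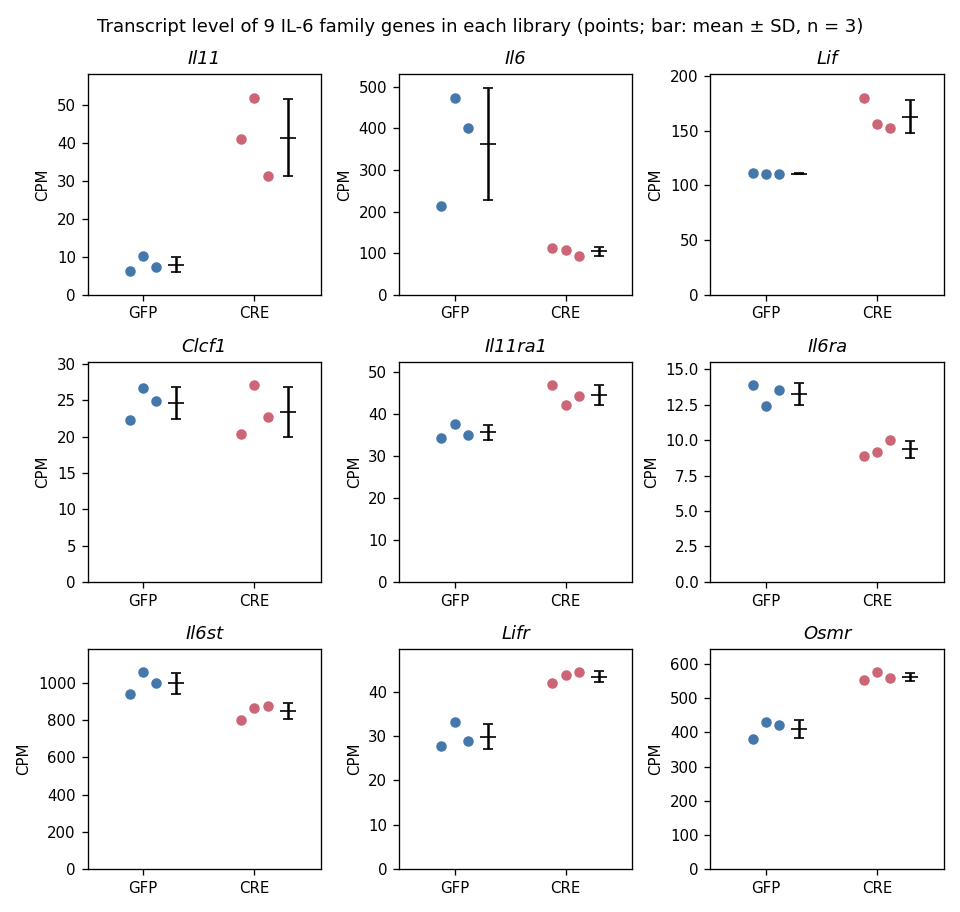
Level of each gene in CPM, in the 3 GFP libraries (blue) and the 3 CRE libraries (red), with the mean and SD of each group as a bar beside the points and every axis starting at 0. The CRE points of *Il11* lie between 31.5 and 51.9 CPM, above GFP points of at most 10.1 CPM, while those of *Il6* lie below all GFP points and those of *Clcf1* among them.

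*Il11* (ENSMUSG00000004371) codes for interleukin-11 and is located at 4772373 to 4782859 of chromosome 7 (minus strand, GRCm38). In order of replicate number, the GFP libraries held 102, 180 and 139 of its reads, and the CRE libraries 764, 938 and 596. After scaling these were 6.34, 10.1 and 7.22 CPM in GFP and 41.0, 51.9 and 31.5 CPM in CRE. The lowest CRE library was 21.3 CPM above the highest GFP library, although the level varied 1.6-fold among GFP libraries and 1.65-fold among CRE libraries. The mean went from 7.90 ± 1.99 to 41.5 ± 10.2 CPM (SD, n = 3), which is 5.25-fold higher, with a log2 fold change of 2.39 (SE 0.20). Of all tested genes, 64 had a higher log2 fold change.

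*Lif* (ENSMUSG00000034394), which codes for leukemia inhibitory factor, is located at 4257557 to 4272514 of chromosome 11 (plus strand). GFP libraries had counts of 1790, 1959 and 2121, and CRE libraries counts of 3348, 2818 and 2895. The level was nearly the same in the 3 GFP libraries, at 111, 110.4 and 110.2 CPM, and all CRE libraries were higher, at 179.9, 156 and 153 CPM. On average *Lif* reached 147% of its GFP level, a log2 fold change of 0.56 (SE 0.06).

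*Il6* (ENSMUSG00000025746), the gene of interleukin-6, is located at 30013114 to 30019981 of chromosome 5 (plus strand). GFP libraries had counts of 3444, 8395 and 7706, and CRE libraries counts of 2093, 1962 and 1742. In CPM the GFP libraries were at 214, 473 and 400.4, and the CRE libraries at 112, 109 and 92.0. GFP replicate 1 was well below the other GFP libraries, and still above all CRE libraries. The mean went from 363 ± 134 to 104 ± 10.9 CPM (SD, n = 3), 28.8% of the GFP level, with a log2 fold change of -1.80 (SE 0.23). Without GFP replicate 1 the log2 fold change was -2.07.

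*Clcf1* (ENSMUSG00000040663), which codes for cardiotrophin-like cytokine factor 1, is located at 4214238 to 4223490 of chromosome 19 (plus strand). Its level was 22.3, 26.7 and 24.9 CPM in the GFP libraries and 20.4, 27.1 and 22.7 CPM in the CRE libraries. The groups overlapped. The log2 fold change was -0.08, with an interval of 95% from -0.31 to 0.16, and its sign depended on how the libraries were scaled.

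The 250 bases before the annotated start of the 3 ligands whose groups did not overlap are shown to allow these genes to be compared at the sequence level, as read 5′ to 3′ on the strand of the gene (RefSeq, GRCm38.p6). They lie at chr7:4782858-4783107 for *Il11* (minus strand), chr11:4257318-4257567 for *Lif* and chr5:30012864-30013113 for *Il6* (plus strand). Capitals mark matches to the motifs searched.
Il11: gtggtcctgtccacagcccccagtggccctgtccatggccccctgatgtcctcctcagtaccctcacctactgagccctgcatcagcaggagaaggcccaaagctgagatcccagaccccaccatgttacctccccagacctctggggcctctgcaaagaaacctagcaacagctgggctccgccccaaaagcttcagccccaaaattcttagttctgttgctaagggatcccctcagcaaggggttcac
Lif: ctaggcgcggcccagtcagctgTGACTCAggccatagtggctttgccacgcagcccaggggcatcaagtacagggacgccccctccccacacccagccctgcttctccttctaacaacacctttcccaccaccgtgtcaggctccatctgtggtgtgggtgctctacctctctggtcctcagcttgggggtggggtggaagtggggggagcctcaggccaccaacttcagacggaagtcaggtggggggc
Il6: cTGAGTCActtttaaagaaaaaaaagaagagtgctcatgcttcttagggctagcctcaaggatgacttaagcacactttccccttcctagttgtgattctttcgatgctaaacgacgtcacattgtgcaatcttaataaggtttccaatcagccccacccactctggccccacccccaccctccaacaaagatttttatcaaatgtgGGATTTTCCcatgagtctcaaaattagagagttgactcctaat
Of the members, 8 had a promoter in the table, all but *Clcf1*. The windows were searched on both strands for AP-1 (TGANTCA), STAT (TTCNNNGAA), cAMP response (TGACGTCA), NF-kB (GGNNTTTCC), TEAD (GGAATG), EGR (GCGNGGGCG), SMAD (GTCTAGAC), C/EBP (TTGCGNAA) and TATA box (TATAAA) letters. No match overlapped another in the sequences shown. *Lif* held 1 AP-1 match, 228 to 222 bases before its start. *Il6* held 1 AP-1 match, 249 to 243 bases before its start, and 1 NF-kB match, 43 to 35 bases before it. None of these letters was found in the window of *Il11*, which says nothing of other positions or of looser matches. Of the other 5 members only *Lifr* had a match, an EGR match 91 to 83 bases before a RefSeq start that is 38958 bases from the start in GENCODE. Among all 32851 promoters of the table, 6.75% held the AP-1 letters, 4.93% the NF-kB letters and 4.70% the EGR letters. The share of bases that were G or C was 58.8%, 63.6% and 42.8% in *Il11*, *Lif* and *Il6*, against a median of 52.4% of all promoters, and the number of CG pairs, the sites at which DNA is mainly methylated, was 1, 6 and 3 against a median of 6. DNA methylation was not analysed here.

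The ligand-binding receptors went in opposite directions. *Il11ra1* (ENSMUSG00000073889), which codes for the receptor of IL-11, is located at 41699989 to 41769474 of chromosome 4 (plus strand). It had 34.4, 37.7 and 34.9 CPM in the GFP libraries and 46.8, 42.1 and 44.4 CPM in the CRE libraries. All CRE libraries were above all GFP libraries, by at least 4.43 CPM, and the log2 fold change was 0.32 (SE 0.06). Of the stretches of 50 bases in its annotated transcripts, 46.3% also occur in transcripts of *Il11ra2* or *Gm13305*. *Il11ra2* had at most 1 count per library, and reads that match several of these genes could have been lost or split in counting, so the level of *Il11ra1* is uncertain. *Il6ra* (ENSMUSG00000027947), the gene of the IL-6 receptor, is located at 89864059 to 89913196 of chromosome 3 (minus strand). GFP libraries had counts of 223, 220 and 260, and CRE libraries counts of 165, 165 and 190, or 13.9, 12.4 and 13.5 CPM against 8.86, 9.14 and 10.03 CPM. The groups did not overlap, the mean in CRE was at 70.5% of that in GFP, and the log2 fold change was -0.50 (SE 0.10). On the authors' FPKM values (fragments scaled to transcript length and sequencing depth) it had the same direction but did not pass the threshold. An antisense gene, *Gm42809*, shares 242 exon bases with *Il6ra*, and whether counting used the strand was not stated.

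Of the signal-transducing receptors, the partners of gp130 were higher and gp130 was slightly lower. *Osmr* (ENSMUSG00000022146), which codes for the oncostatin M receptor, is located at 6813577 to 6874969 of chromosome 15 (minus strand). It had 381, 430.2 and 421 CPM in the GFP libraries and 552, 575 and 559 CPM in the CRE libraries. The lowest CRE library was 122 CPM above the highest GFP library, and the mean in CRE reached 137% of that in GFP (log2 fold change 0.45, SE 0.05). *Lifr* (ENSMUSG00000054263), the gene of the LIF receptor, is located at 7090614 to 7197489 of the same chromosome (plus strand). It had 27.7, 33.1 and 28.9 CPM in the GFP libraries and 42.0, 43.8 and 44.4 CPM in the CRE libraries. Its groups did not overlap either, and the log2 fold change was 0.54 (SE 0.07). *Il6st* (ENSMUSG00000021756, chromosome 13, positions 112464070 to 112510086, plus strand) had 944, 1057 and 998 CPM in the GFP libraries and 799, 868 and 877 CPM in the CRE libraries. On average it stood at 84.8% of the GFP level, with a log2 fold change of -0.24 (SE 0.05). Scaling by library size alone put the median log2 fold change of all tested genes at 0.17, and with that scaling *Il6st* was at -0.075 and did not pass the threshold.

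**Figure D2:**
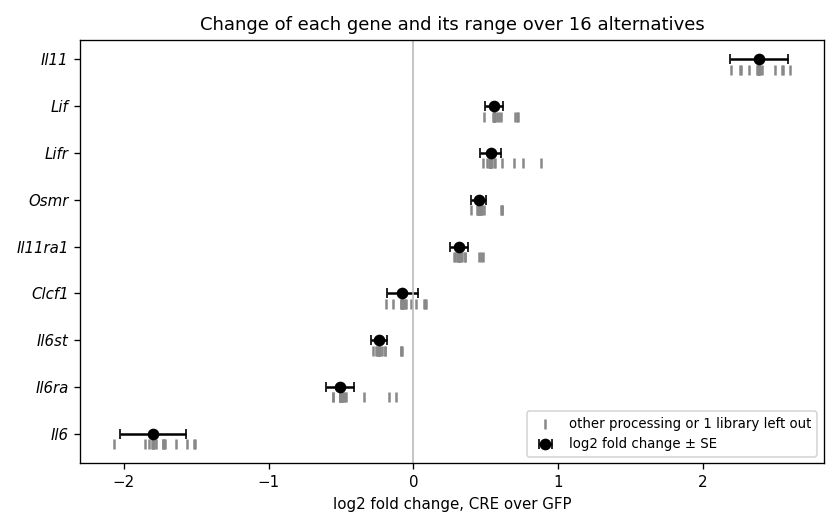
Log2 fold change of CRE over GFP for each gene (black points, with SE) and the values from 16 other fits (grey ticks: other scaling, filters, tools or units, or 1 library left out). *Il11* stays between 2.20 and 2.60 and *Il6* between -2.07 and -1.51, while the ticks of *Clcf1* lie on both sides of 0.

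Levels of different genes were compared per transcript length, on the FPKM values that the authors deposited for each library. In the GFP libraries *Il6* had the highest level of the 9, at 299 ± 109 FPKM (SD, n = 3), followed by *Il6st* at 151 ± 8.64, *Osmr* at 71.6 ± 4.47, *Lif* at 26.1 ± 0.0737, *Il11ra1* at 18.0 ± 0.778 and *Clcf1* at 12.6 ± 1.13 FPKM. *Il11* at 4.2 ± 1.19 and *Lifr* at 4.02 ± 0.355 FPKM overlapped, and *Il6ra* was lowest at 2.36 ± 0.115 FPKM. Other neighbours in this order had no values in common. In the CRE libraries *Il6st* had the highest level, at 142 ± 7.61 FPKM, followed by *Osmr* at 109 ± 2.49 and *Il6* at 99.5 ± 10.1 FPKM, which did not overlap. *Lif* was at 43.1 ± 3.72 FPKM. *Il11* (24.1 ± 6.20 FPKM) and *Il11ra1* (25.0 ± 1.35 FPKM) overlapped, above *Clcf1* (13.4 ± 2.02), *Lifr* (7.50 ± 0.441) and *Il6ra* (2.10 ± 0.110 FPKM).

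**Figure D3:**
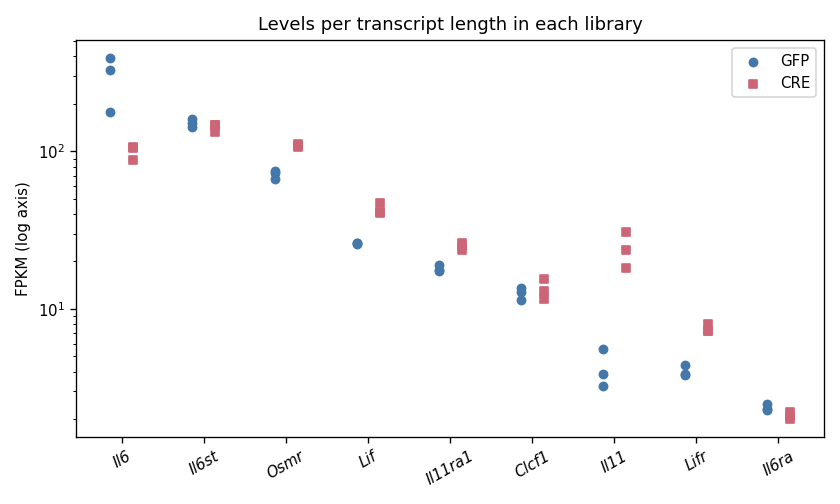
FPKM of each gene in every library on a log axis, GFP as blue circles and CRE as red squares, ordered by the GFP mean. *Il6* falls from the first place among GFP libraries to the third among CRE libraries, and *Il11* moves from the level of *Lifr* to that of *Il11ra1*.

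The make-up of the ligand transcripts differed between the groups. *Il6* made up 81.4%, 89.6% and 88.5% of the summed FPKM of the 4 ligands in GFP libraries, against 56.3%, 54.4% and 55.1% in CRE libraries. The share of *Il11* was 1.48%, 1.27% and 1.03% in GFP and 12.5%, 15.9% and 11.4% in CRE, and that of *Lif* was 11.9%, 5.98% and 7.03% in GFP and 25.1%, 21.6% and 25.4% in CRE. There was thus 55.1, 70.5 and 85.9 times as much *Il6* as *Il11* in GFP libraries, against 4.52, 3.41 and 4.83 times as much in CRE libraries. The summed ligand level was 342 ± 111 FPKM in GFP and 180.0 ± 17.7 FPKM in CRE (SD, n = 3), the lowest GFP library at 219 FPKM and the highest CRE library at 192 FPKM. Among the receptors, *Il6st* made up 61.1% ± 0.193 in GFP and 49.7% ± 1.22 in CRE, and *Osmr* 29.0% ± 0.420 in GFP and 38.2% ± 0.676 in CRE. *Il6st* was 2.11 ± 0.0361 times as abundant as *Osmr* in GFP and 1.30 ± 0.0529 times in CRE. The level of *Il11ra1* was 7.64 ± 0.646 times that of *Il6ra* in GFP and 11.9 ± 0.671 times in CRE. These shares are of transcripts, and protein was not analysed here.

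**Figure D4:**
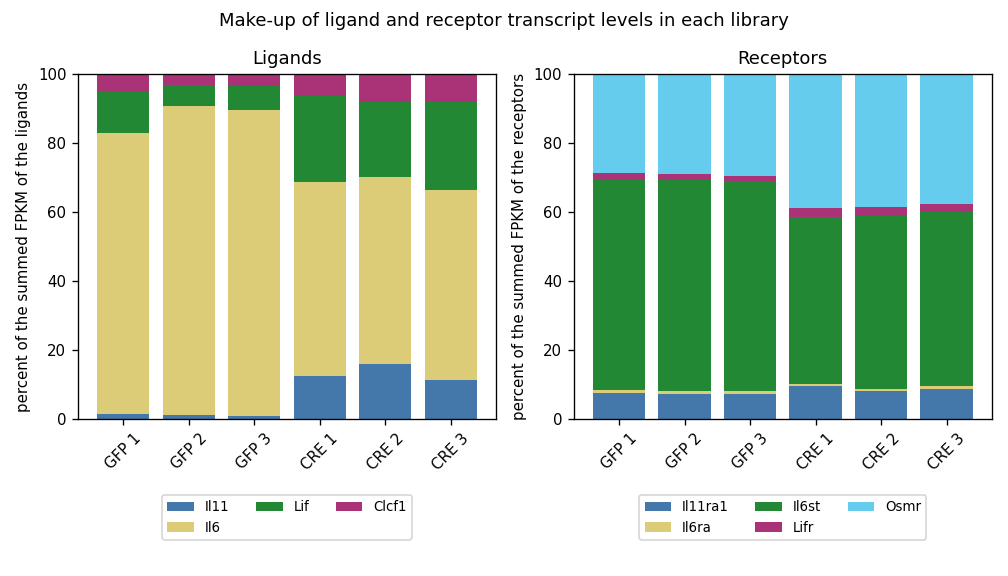
Share of each gene in the summed FPKM of the 4 ligands (left) and of the 5 receptors (right), in percent, for each library. In the CRE libraries the band of *Il6* narrows to at most 56.3% and those of *Il11* and *Lif* widen, and among the receptors *Osmr* widens beside *Il6st*.

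The methods name different tools for counts and FPKM. The count divided by the FPKM and by the total count gives the transcript length that the FPKM value implies. The groups did not overlap in this length in 5 of the 9 members, and in 14.9% of 10500 genes with at least 50 counts and more than 0.5 FPKM in every library. For *Lifr* this length was 6.91, 7.07 and 7.11 kb in GFP libraries, against 6.09, 5.81 and 6.48 kb in CRE libraries. All CRE libraries were lower, at 87.2% of the GFP mean. *Lifr* stood at 187% of its GFP level in FPKM and at 145% in CPM. The FPKM values lack the TMM scaling of the CPM values, and *Osmr*, with an implied length at 100.4% of that in GFP, also stood higher in FPKM (153%) than in CPM (137%). *Il6ra* had an implied length of 5.24, 5.12 and 5.54 kb in GFP and 4.49, 4.85 and 4.78 kb in CRE, 88.8% of the GFP mean. The coding transcripts that GENCODE lists are between 577 and 9655 bases long for *Lifr* and are 3343 and 8639 bases long for *Il6ra*. In *Il6*, *Il6st* and *Clcf1* the groups were apart but close, with CRE means at 96.9%, 100.9% and 99.99% of the GFP means. For *Clcf1* the implied length was 1.847 kb in every library, and its longest coding transcript has 1847 bases. The FPKM values of *Clcf1* thus match the counts used here, scaled by total count and this length. Whether the deposited FPKM values were computed from these counts is not stated. Reads per exon were not analysed here, and the cause of the differences in implied length was not tested.

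Further genes of the family and its pathway were taken from lists. Across all tested genes 25.5% were higher and 25.7% lower, so the counts of a list are a description and are not read as particular to it. Most other ligands and receptors had too few counts to be tested. Of 12 listed ligands and secreted partners, 4 were tested, 2 of which were lower and none higher, with a median log2 fold change of -0.94 against 0.0052 of all tested genes. *Ctf1*, which codes for cardiotrophin-1, a ligand of LIFR and gp130, fell from 2.41 ± 0.108 to 1.05 ± 0.448 CPM (log2 fold change -1.20, SE 0.29, edgeR adjusted p of 0.00617). *Csf3*, the gene of the related cytokine G-CSF, fell from 6.08 ± 0.872 to 2.95 ± 1.03 CPM (log2 fold change -1.04, SE 0.23, edgeR adjusted p of 0.00336). *Cntf* had 4 to 21 counts per library and did not pass the threshold (log2 fold change -0.84, SE 0.45), except without CRE replicate 1. No read was counted in any library for *Osm*, which codes for the ligand of OSMR, or for *Il31* and *Lep*. A count of 0 allows at most between 0.156 and 0.187 CPM at these depths, counting error only. Of 10 other receptors 4 were tested and 1 was higher. *Cntfr*, which codes for the ligand-binding receptor of CNTF and CLCF1, rose from 2.36 ± 0.396 to 4.83 ± 0.867 CPM (log2 fold change 1.03, SE 0.20, edgeR adjusted p of 0.00161). *Lepr* (log2 fold change -0.71, SE 0.29) and *Crlf3* (0.21, SE 0.09) did not pass the threshold in this fit and did so in 6 and 4 of 16 others.

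Of 11 listed JAK and STAT genes 10 were tested, 2 higher and 2 lower, close to the shares of 25.5% and 25.7% of all tested genes, with a median log2 fold change of 0.06. *Jak3* (1.01, SE 0.15, edgeR adjusted p of 0.000257) and *Tyk2* (0.71, SE 0.08, edgeR adjusted p of 4.31e-05) were higher, at 8.17 ± 0.583 and 29.8 ± 0.267 CPM in CRE. *Stat5b* was lower (-0.29, SE 0.06), but did not pass with library size alone or on FPKM. *Stat3*, the main STAT downstream of gp130, was at 376 ± 41.6 CPM in GFP and 329 ± 12.1 CPM in CRE, and these groups overlapped. Its log2 fold change of -0.20 (SE 0.07) had an edgeR adjusted p of 0.0429, and it did not pass the threshold in 9 of 16 other fits. *Jak1*, the most abundant JAK (383 ± 12.9 CPM in GFP), was at -0.03 (SE 0.04) and did not pass. The sign of *Jak1* turned with library size alone and on FPKM.

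Of 15 inhibitors of JAK and STAT signalling 14 were tested, 4 higher and 3 lower, with a median of 0.08. SOCS proteins, made in response to cytokines, bind receptors or JAKs and limit further signalling. *Socs7* (0.50, SE 0.08) and *Socs4* (0.47, SE 0.05) were higher, while *Socs2* (-0.43, SE 0.08) and *Socs1* (-1.05, SE 0.32) were lower, with edgeR adjusted p of 0.000643, 1.92e-05, 0.000949 and 0.0188. *Socs1* had only 30 to 89 counts per library and did not pass in 5 of 16 other fits. *Socs3*, the inhibitor induced by STAT3 and named here after its values were seen, was at 27.5 ± 3.72 CPM in GFP and 35.3 ± 4.43 CPM in CRE. These groups overlapped, and its log2 fold change of 0.37 (SE 0.11) had an edgeR adjusted p of 0.0179 and did not pass in 4 of the 6 fits that left out a library. *Socs5* (0.0086, SE 0.05) and *Ptpn1* (0.14, SE 0.06) did not pass the threshold in this fit and did so in 3 and 5 of 16 others, and the sign of *Socs5* turned in 2 others.

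On the branch from gp130 to ERK, 5 of 15 genes were higher and 4 lower, with a median of -0.0047. The adaptors *Gab1* (-0.65, SE 0.08), *Gab2* (-0.58, SE 0.05) and *Shc1* (-0.54, SE 0.05), which link receptors to RAS, were lower, as was *Mapk3*, the gene of ERK1 (-0.41, SE 0.06), with edgeR adjusted p of at most 0.000219. *Map2k1*, the gene of MEK1 (-0.08, SE 0.05), did not pass, and its sign turned with library size alone and on FPKM. Enzymes that release receptor ectodomains were compared as well, since a shed IL-6R or IL-11R can still bind its ligand. Of 5 tested genes 3 were higher and 1 lower. The protease gene *Adam17* rose by 0.44 on the log2 scale (SE 0.05, edgeR adjusted p of 5.17e-05) and *Rhbdf1*, which codes for a cofactor that matures ADAM17, by 0.22 (SE 0.05). *Timp3*, the gene of an inhibitor of ADAM17, fell from 3553 ± 315 to 1643 ± 38.1 CPM (log2 fold change -1.11, SE 0.06, edgeR adjusted p of 5.17e-07). *Adam10* was at 0.11 (SE 0.04, edgeR adjusted p of 0.0426) and did not pass in 7 of 16 other fits, and *Rhbdf2* did not pass in this fit (-0.13, SE 0.06), but did so without GFP replicate 3 and had the opposite sign with library size alone and on FPKM.

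Of 22 genes known to respond to STAT3 or IL-6 in various cells, 6 were higher and 9 lower, and the median was -0.07. *Ccnd1*, which codes for cyclin D1, rose from 17.1 ± 1.11 to 50.7 ± 2.35 CPM (log2 fold change 1.57, SE 0.07, edgeR adjusted p of 2.40e-07). *Icam1*, an adhesion molecule gene (1.08, SE 0.05), and *Junb*, an AP-1 gene (1.05, SE 0.07), were higher too. *Cebpd*, which codes for a C/EBP transcription factor, fell from 109 ± 5.75 to 50.7 ± 3.15 CPM (log2 fold change -1.10, SE 0.06, edgeR adjusted p of 5.46e-07). Of the most abundant genes that did not pass, *Timp1* was at -0.09 (SE 0.06, positive with library size alone and on FPKM) and the acute-phase gene *Saa3* at 0.13 (SE 0.08). *Saa3* passed in 5 of 16 other fits, the fit with a replicate block among them. Of 17 genes for transcription factors known to act on promoters of *Il11* or *Il6* in various cells, 9 were higher and 3 lower, with a median of 0.18. The immediate early genes *Fosb* (3.05, SE 0.31), *Egr1* (2.42, SE 0.06), *Atf3* (2.003, SE 0.12) and *Fos* (1.27, SE 0.16) were the highest of them, with edgeR adjusted p of at most 9.58e-05. *Fosb* had only 7 to 148 counts per library. The 3 that were lower, named here after their values were seen, were *Fosl2*, an AP-1 gene (-0.69, SE 0.05), and *Smad2* (-0.33, SE 0.05) and *Smad3* (-0.33, SE 0.05), whose products transmit TGF-β signals, with edgeR adjusted p of at most 0.000509. *Smad3* did not pass on FPKM values. *Nfkb1* (0.06, SE 0.07) and *Smad4* (-0.07, SE 0.05) did not pass, although *Nfkb1* did with library size alone and on FPKM. The sign of *Nfkb1* turned without GFP replicate 1, and that of *Smad4* with library size alone and on FPKM.

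**Figure D5:**
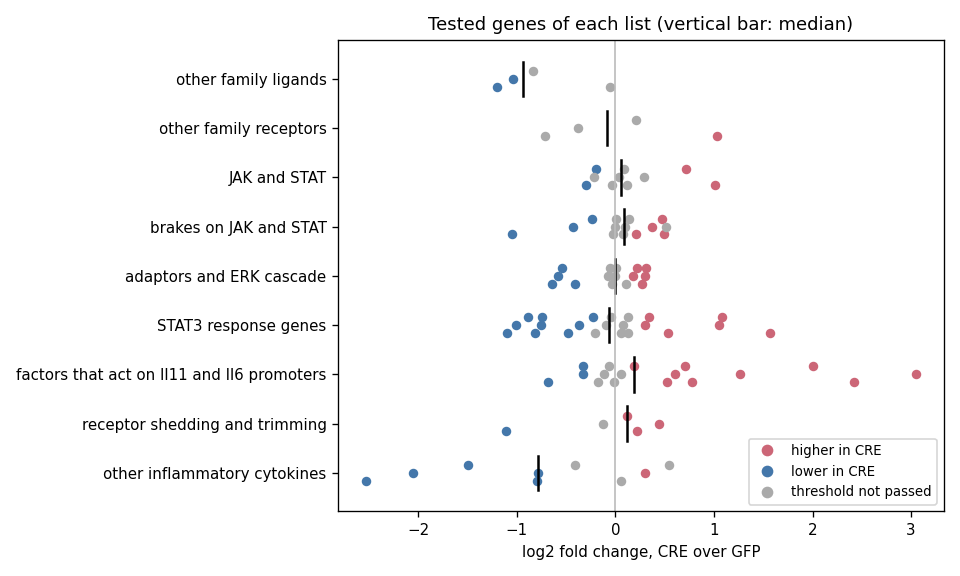
Log2 fold change of CRE over GFP for each tested gene of the lists (red, higher; blue, lower; grey, threshold not passed), with the median of a list as a vertical bar. Most lists of the pathway have genes on both sides of 0, and the transcription factors reach 3.05 (*Fosb*).

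The genes whose level followed that of *Il11* most closely over the 6 libraries were *Fgf2*, *Arfgef1*, *Usp11*, *Rab11fip1* and *Rnf149*, with Pearson's r between 0.997 and 0.998 on log2 CPM, out of 8799 genes with at least 10 CPM on average. The points share the division into groups, and 834 of these genes had an r of at least 0.95, so the measure separates few genes from the rest. All 5 ordered the 6 libraries as *Il11* did, as 114 genes did in all. Their changes were smaller than that of *Il11*, with log2 fold changes of 0.99, 0.28, 0.75, 0.85 and 0.41. *Fgf2*, which codes for a growth factor of fibroblasts, had GFP counts of 5601, 8026 and 7053 and CRE counts of 14415, 15233 and 13301.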

How the data were processed

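RNA-seq had been performed on 6 libraries, 3 GFP and 3 CRE, grouped and numbered by their titles. The authors deposited raw counts per gene, not normalized, and FPKM, which the methods credit to HTSeq-count and Cufflinks. Reads had been trimmed (Trimmomatic) and mapped to GRCm38 (HISAT2), according to the methods. Tool versions and the use of strand in counting are not given in the sources used here. Labels and methods name different RNA and library kits. The table also holds group mean FPKM values, a log2 fold change, and a p-value and false discovery rate, which the authors deposited and which were not used. No other column of per-sample values was left out (0).

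Counts were analysed with edgeR 4.0.16 in R 4.3.3. The filter was filterByExpr (minimum count 10 and total 15) and the scaling TMM. The quasi-likelihood test of CRE against GFP was two-sided and adjusted over all 12862 tested genes by the Benjamini-Hochberg method. SE was derived from the F value of each test (absolute log2 fold change over its square root). The fit was tested on simulated data. No libraries were duplicates, since chi-square was at least 4.07 per degree of freedom in each pair of a group. Same-numbered libraries did not deviate together in every pair (correlations of 0.046, 0.18 and -0.018), so the numbers were not used as pairs.

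The members and lists were chosen with earlier results of these data known. Of each list at most 4 genes past the threshold with a mean of at least 1 CPM, those with the largest absolute change, and at most 2 others of the highest level were named. Some genes of this rule are not reported here. The alternatives were RLE, library size alone or upper-quartile scaling, other filters, DESeq2 1.42.0, limma-voom (limma 3.58.1), limma on log2(FPKM + 1) and log2(FPKM + 0.1), a replicate block, each library left out, and other thresholds. Coordinates and transcripts are from GENCODE M21 (GRCm38). Figures were drawn with matplotlib 3.10.9.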

Additional observations from a re-analysis of the deposited data

How the results depend on the processing

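*Il11*, *Il6*, *Lif*, *Il11ra1*, *Lifr* and *Osmr* kept their direction and passed the threshold in all 16 other fits, and *Il6ra* and *Il6st* kept their direction. *Il6ra* did not pass on FPKM values (-0.12 and -0.16), nor *Il6st* on FPKM values (-0.087 with either pseudocount) or with library size alone (-0.075), so that 1 member was lower on log2(FPKM + 1) and log2(FPKM + 0.1). *Clcf1* turned positive with library size alone (0.086) and on both FPKM scales (0.076 and 0.081), and lay between -0.19 and 0.017 with 1 library left out. At the study's threshold (unadjusted p under 0.05 and a fold change over 1.5 or under 0.66) 1 member was higher and 1 lower, and 31 genes of the pathway lists passed in place of 60, with 967 genes higher and 1323 lower overall. Over all genes, library size alone gave 5529 higher and 2083 lower (72.6% higher, against 49.8% of 3277 and 3306), log2(FPKM + 1) gave 4976 and 1916 (72.2%) and log2(FPKM + 0.1) gave 4989 and 1909 (72.3%). For library size alone this follows from the scaling. The FPKM values lack the TMM scaling as well. The median log2 fold change of all tested genes was 0.135 on log2(FPKM + 1) and 0.165 on log2(FPKM + 0.1). With library size alone it was 0.167, and with TMM scaling 0.0052. How much of the split on FPKM comes from the missing scaling was not tested. Of the 60 list genes past the threshold, 45 passed in the same direction in all other fits in which they were kept, and none reversed. With the replicate block 3260 genes were higher and 3373 lower, and no member changed its call. The log2 fold change of *Il6* was -1.73 with the block. *Il11* had 102 to 180 counts in the GFP libraries, which limits the precision of its level there.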

Other observations

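Cytokines outside the IL-6 family were examined as well. Of 12 listed genes 9 were tested, 5 lower and 1 higher in CRE libraries, where 25.7% of all tested genes were lower and 25.5% higher, with a median log2 fold change of -0.79 against 0.0052 of all tested genes. *Il1rn*, which codes for the antagonist of the IL-1 receptor, fell from 3.03 ± 1.08 to 0.522 ± 0.113 CPM (SD, n = 3; log2 fold change -2.53, SE 0.35, edgeR adjusted p of 0.000196). *Il1a* fell from 2.41 ± 0.284 to 0.844 ± 0.0690 CPM (log2 fold change -1.50, SE 0.24, edgeR adjusted p of 0.000494). *Il34*, the gene of a ligand of CSF1R, fell by 0.79 on the log2 scale (SE 0.23) and *Il33*, an alarmin gene, by 0.80 (SE 0.25), with edgeR adjusted p of 0.0154 and 0.0212. Their calls were lost in 2 and 4 of the 6 fits that each left out a library, without GFP replicate 2 or CRE replicate 3 for *Il34* and without GFP replicate 2 or 3 or CRE replicate 1 or 2 for *Il33*. *Il15* (-0.41, SE 0.23) and *Il18* (0.06, SE 0.19) did not pass the threshold, although *Il15* did without GFP replicate 1, and the sign of *Il18* turned without GFP replicate 2 or CRE replicate 3. The single gene that was higher was *Csf1*, named here after its values were seen, which codes for the growth factor of macrophages and went from 2334 ± 138 to 2875 ± 80.7 CPM (log2 fold change 0.30, SE 0.05, edgeR adjusted p of 0.000523). The markers of macrophages in these libraries are given above, and their part in these differences was not tested.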
